A study of Drosophila melanogaster with 8 samples.

Results

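The genes described here code for hnRNP and KH domain proteins that bind pre-mRNA and regulate splicing, and what was measured is how much of their own mRNA was recovered with a pair of other RNA-binding proteins. They were chosen by gene ID: 9 IDs were set, of which bl (FBgn0015907), the fly hnRNP K homologue, was not analysed here, so 8 of the 17559 genes in the tables are covered. The 8 are Hrb27C, sqd, Hrb98DE, Hrb87F, heph and glo, whose proteins bind RNA through RRM-type domains, and ps and mub, whose proteins bind it through KH domains. RNA that co-purified with tagged protein was sequenced from transfected SL2 cells, a male Drosophila melanogaster line of haemocyte-like character. The groups were anti-FLAG precipitates of SXL (2 libraries), SSX (3 libraries) and GFP (2 libraries), each protein carrying a FLAG and HA tag. A single input library was not analysed here, so recovery is given relative to the GFP precipitate and not to the level of each mRNA in the cell.

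An hnRNP protein coats newly made transcripts and can hide or expose splice sites, and KH proteins such as the Nova family do so at clustered short motifs. Sex-lethal (SXL) is itself an RRM protein of females that binds runs of uridine, redirects splicing of its own and of tra pre-mRNA and represses msl-2 mRNA, while Sister-of-Sex-lethal (SSX) is its paralogue. Many hnRNP genes are known to be regulated at the level of their own splicing. The comparisons set each protein's precipitate against that of GFP and against the other's.

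Counts for single libraries covered the 956 genes of the authors' lists of RNAs enriched with SXL or SSX (log2 fold change above 2 and adjusted p under 0.001). Hrb27C, sqd, Hrb98DE, ps and mub are among them, and Hrb87F, heph and glo are not. Reads over these genes numbered 3266209 and 3604413 in the SXL libraries, 3383720 to 4429899 in the SSX libraries, and 20859 and 27467 in the GFP libraries. The GFP side therefore limits the precision. The bait transcripts followed the labels, with a log2 fold change over GFP of 6.06 for Sxl in the SXL precipitate and 5.84 for ssx in the SSX precipitate in the authors' deposited table. Of 10 haemocyte marker genes only srp, a GATA factor, could be named in the tables. Of the other cell type markers set out, only msl-2 and roX1 (male dosage compensation) and osk (germ line) could be named. Most names came from the authors' lists, which hold srp, msl-2 and osk, so which markers could be named depends on enrichment. Mean normalized counts in the authors' deposited table were 3064 for srp, 1616 for msl-2, 8.31 for roX1 and 248 for osk. Recovery in a precipitate is not the level in the cell, so these markers do not check the cell type. Nothing in the labels tells whether a group's libraries derive from separate cultures, and the spread that the p-values rest on may be technical. In such bulk samples fewer cells making an RNA and less of it per cell cannot be told apart.

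The transcripts of all 8 genes rose in the SSX precipitate, and those of 5 (Hrb27C, sqd, Hrb98DE, ps and mub) rose in the SXL precipitate. Here and below, a call is an adjusted p under 0.05 in a table deposited by the authors. Of all tested genes, 26.2% rose with SSX and 16.4% with SXL. None of the 8 fell with either protein, against 19.3% of tested genes with SSX and 13.0% with SXL. The median log2 fold change of the 8 was 2.24 with SSX and 1.37 with SXL in the authors' deposited table, against 0.44 and 0.09 over all tested genes. All 8 had mean normalized counts of 50 or more, and of the genes that abundant a larger share rose, 45.7% with SSX and 27.7% with SXL. That floor is low for most of the 8, as heph had a mean of 86.5 and the others 515 to 14891. The medians, the shares that fell and the list share were not matched for abundance. In the authors' list for SSX stood 5 of the 8, against 10.5% of the genes tested there. For the 5 genes with counts per library these directions depend on scaling to genes outside the lists, since several values turned when libraries were scaled on the 956 enriched genes alone, a scaling that centres the enriched genes on 0.

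**Figure D1:**
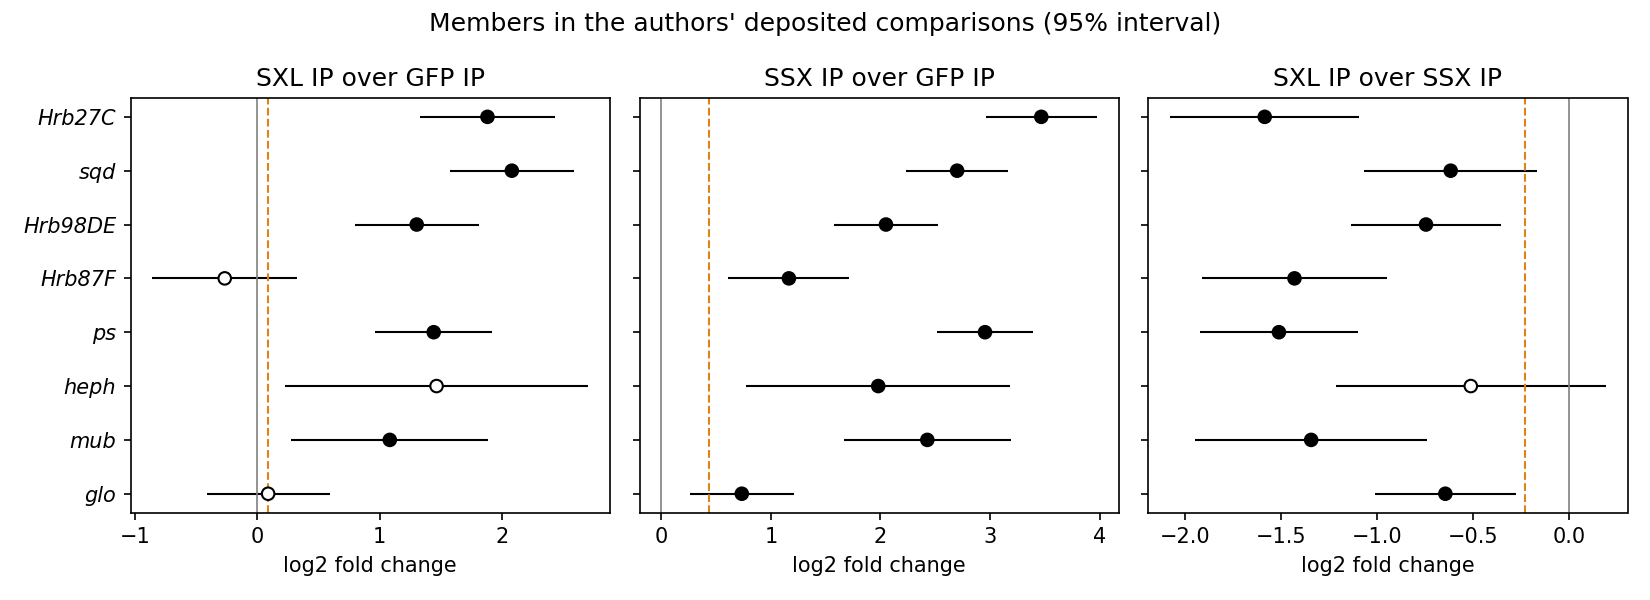
Log2 fold change of each of the 8 transcripts (rows) in the 3 deposited comparisons (panels), with its 95% interval. Filled points passed an adjusted p of 0.05, open points did not, the grey line marks 0 and the dashed line the median of all tested genes. All 8 points are filled for SSX over GFP, 5 for SXL over GFP and 7 for SXL over SSX.

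Hrb27C (FBgn0004838), also called Hrp48, is an hnRNP of the A/B type that acts in splicing, in mRNA localisation and in the translational repression of osk. Its gene lies on 2L, from 6920704 to 6932057 (build BDGP6). Normalized counts of Hrb27C were 8394 and 9550 in the SXL libraries, 21145, 24391 and 35976 in the SSX libraries, and 2641 and 2142 in the GFP libraries. All 3 groups were separate, with SSX highest and GFP lowest. Being in the authors' lists favours such separation, here and for the other genes with counts per library. For each pair of groups 94.6% to 99.7% of the listed genes were separated in the same order. The means of Hrb27C were 8972 ± 817 with SXL (SD, n = 2), 27171 ± 7797 with SSX (SD, n = 3) and 2391 ± 353 with GFP (SD, n = 2). The log2 fold change over GFP was 1.88 with SXL (SE 0.28, adjusted p = 6.83e-10) and 3.47 with SSX (SE 0.26, adjusted p = 4.59e-39) in the authors' deposited table. Only 2.8% of tested genes had a higher value with SSX.

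The gene sqd (FBgn0263396), which codes for the hnRNP Squid (Hrp40) that works with Hrb27C in localising gurken mRNA in the oocyte, lies on 3R, from 13634862 to 13646304. Normalized counts of sqd were 8496 and 10474 with SXL, 11786, 13460 and 18504 with SSX, and 2212 and 2192 with GFP. Every SXL and SSX library stood above both GFP libraries, and the highest SXL library came close to the lowest SSX library. In the authors' deposited table its log2 fold changes were 2.08 with SXL (SE 0.26, adjusted p = 4.80e-14) and 2.70 with SSX (SE 0.24, adjusted p = 5.15e-28). The sqd transcript was the only one of the 8 in the authors' list for SXL, which holds 2.78% of the genes tested there.

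Hrb98DE (FBgn0001215) and Hrb87F (FBgn0004237) code for the closest fly counterparts of the vertebrate hnRNP A1 and A2/B1 proteins. For Hrb98DE (3R, 28599834 to 28605777) normalized counts were 1198 and 1247 with SXL, 1778, 1925 and 2467 with SSX, and 440 and 531 with GFP, again without overlap. The log2 fold changes of Hrb98DE in the authors' deposited table were 1.30 with SXL (SE 0.26, adjusted p = 6.66e-06) and 2.05 with SSX (SE 0.24, adjusted p = 7.02e-16). Hrb87F did not pass in the SXL precipitate. Its log2 fold change there was -0.27, with a 95% interval from -0.86 to 0.33 and an adjusted p of 0.547 in the authors' deposited table, while with SSX it was 1.16 (SE 0.28, adjusted p = 0.000159). Those SXL intervals of Hrb87F and Hrb98DE did not overlap, although the difference between the genes was not itself tested. How reads matching more than 1 gene were counted is not given in the sources used here, so reads in stretches shared by these paralogues are uncertain. Hrb87F (3R, 13656846 to 13660531 in RefSeq Release 6) starts 10541 bp beyond the end of sqd, so the neighbours on the chromosome had the highest and the lowest SXL value of the 8.

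The KH domain genes rose with both proteins. The gene ps (pasilla, FBgn0261552, 3R, 9417940 to 9455500) codes for the fly counterpart of the Nova splicing factors. Normalized counts of ps were 3686 and 4307 with SXL, 8967, 12896 and 12537 with SSX, and 1524 and 1386 with GFP, with no overlap between any groups. For ps the authors' deposited table gave 1.44 on the log2 scale with SXL (SE 0.24, adjusted p = 6.88e-08) and 2.96 with SSX (SE 0.23, adjusted p = 2.47e-37). The gene mub (mushroom-body expressed, FBgn0262737, 3L, 21844788 to 21932702) codes for a KH protein of the poly(C)-binding family. Its normalized counts were 344 and 333 with SXL, 575, 815 and 1223 with SSX, and 181 and 133 with GFP, so the SSX libraries were spread more widely than the others. The GFP values of mub rest on 16 reads in each library. For mub the authors' deposited table gave a log2 fold change of 1.08 with SXL (SE 0.41, adjusted p = 0.0312) and 2.43 with SSX (SE 0.39, adjusted p = 3.70e-09). The SXL call of mub was lost with the fold changes centred on the median of tested genes (adjusted p = 0.0517). It was also lost when the adjustment covered genes of low counts as well (adjusted p = 0.0532), at a threshold of 0.01 and with a Bonferroni adjustment. In edgeR's quasi-likelihood fit on the listed genes, its log2 value was 1.13 with all libraries and 0.91 without GFP library 3.

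**Figure D2:**
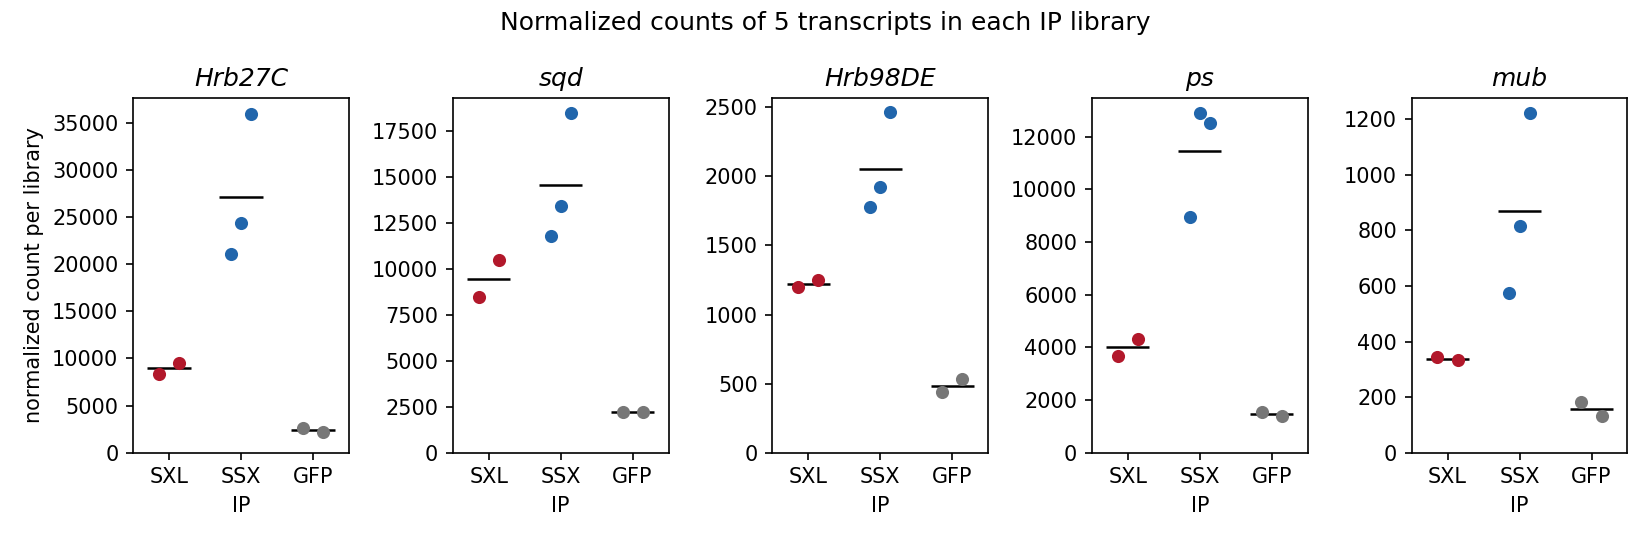
Normalized count of 5 transcripts in each precipitate library. Points are libraries (2 SXL, 3 SSX, 2 GFP), bars are group means, and each panel has its own linear axis from 0. In every panel the SSX libraries are highest and the GFP libraries lowest, without overlap. All 5 genes are in the authors' lists of enriched RNAs, which favours this order. Of the 956 listed genes 99.7% had SSX above GFP without overlap, 97.2% had SXL above GFP and 94.6% had SXL below SSX.

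The remaining genes, heph and glo, had no counts per library here. The gene heph (hephaestus, FBgn0011224, 3R, 31846987 to 32015520 in RefSeq Release 6) codes for the fly polypyrimidine tract-binding protein, a repressor of exon inclusion. It had the lowest mean normalized count of the 8, 86.5 over the 7 libraries in the authors' deposited table, and the largest standard errors. Its log2 fold change was 1.47 with SXL (SE 0.63, adjusted p = 0.0648) and 1.98 with SSX (SE 0.62, adjusted p = 0.00412) in the authors' deposited table. For heph the SXL value is as large as that of ps but did not pass, and it passed when the adjustment covered only genes whose mean normalized count reached 50 (adjusted p = 0.0443). The gene glo (glorund, FBgn0259139, 3R, 11815206 to 11819420 in RefSeq Release 6), an hnRNP F/H homologue that represses nanos translation in the embryo, had the values nearest 0. Its log2 fold change was 0.09 with SXL (95% interval -0.41 to 0.59, adjusted p = 0.838) and 0.73 with SSX (SE 0.24, adjusted p = 0.00728) in the authors' deposited table. With the SSX values centred on the median of all tested genes glo had 0.30 and no longer passed (adjusted p = 0.322).

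Set directly against each other, the precipitates differed for 7 of the 8 transcripts, all lower with SXL than with SSX. Of all tested genes 25.9% were lower with SXL, and 40.4% of those whose mean normalized count reached 50, in the authors' deposited table. In the authors' list for SSX, which holds Hrb27C, sqd, Hrb98DE, ps and mub, the share was 91.3% of 947 genes. Being in that list favours lower values with SXL. None of the 8 was higher with SXL, against 11.5% of tested genes. The median log2 SXL over SSX of the 8 was -1.05, against -0.23 over all tested genes. Hrb27C (-1.59, SE 0.25), ps (-1.51, SE 0.21), Hrb87F (-1.43, SE 0.25) and mub (-1.34, SE 0.31) were each lower with SXL, with adjusted p from 2.67e-11 to 8.78e-05 in the authors' deposited table. Hrb98DE (-0.75, adjusted p = 0.00101), glo (-0.65, adjusted p = 0.00264) and sqd (-0.62, adjusted p = 0.0226) had values nearer 0 in the authors' deposited table. The transcript of heph had -0.51 and did not pass (adjusted p = 0.264), with a 95% interval from -1.22 to 0.19 that leaves room for a difference as large as that of sqd. Centred on the median of tested genes, sqd (-0.39, adjusted p = 0.175) and glo (-0.42, adjusted p = 0.0664) no longer passed. In edgeR's quasi-likelihood test on the listed genes sqd passed narrowly (adjusted p = 0.0359), and it passed in 1 of the 7 fits that each left out a library. The call of sqd was lost without SSX library 2 (adjusted p = 0.0562) or 3 (adjusted p = 0.152). It was also lost without SXL library 2 (log2 value -0.48) or 3 (-0.78), which leaves a lone SXL library, and without either GFP library. GFP libraries do not enter the SXL over SSX ratio. Without GFP library 2 or 3 the value stayed at -0.62, and only the spread estimated across all groups changed. The log2 value of sqd over these fits was -0.78 to -0.41. In the same test Hrb98DE lost its call without SXL library 2 (-0.72, adjusted p = 0.0776) or 3 (-0.78, adjusted p = 0.0530), with values close to the -0.75 of all 7 libraries. Scaled on the listed genes alone with TMM, sqd (0.64) and Hrb98DE (0.51) turned to higher with SXL, and Hrb27C (-0.33), ps (-0.26) and mub (-0.07) kept their sign and did not pass.

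Ratios between transcripts within a library do not depend on how libraries are scaled, and they were examined after the values above had been seen. Reads of Hrb27C per read of sqd were 0.988 and 0.912 in the SXL libraries, 1.79, 1.81 and 1.94 in the SSX libraries, and 1.19 and 0.977 in the GFP libraries. The SSX libraries stood apart from all others, and SXL and GFP overlapped. Reads of ps per read of sqd were 0.434 and 0.411 with SXL, 0.761, 0.958 and 0.678 with SSX, and 0.689 and 0.633 with GFP. Here the SXL libraries were the low ones, and SSX and GFP overlapped. The mub to sqd ratio was likewise lowest with SXL, at 0.0405 and 0.0318, against 0.0488 to 0.0661 with SSX and 0.0606 to 0.0816 with GFP. For Hrb98DE the ratio to sqd was 0.119 to 0.141 with SXL and 0.133 to 0.151 with SSX, which overlapped, and 0.199 to 0.242 with GFP, above both. So recovery of Hrb27C, ps and mub relative to sqd was lower in every SXL library than in every SSX library, and that of Hrb98DE was not. Of the genes with counts per library, sqd had the highest value with SXL over GFP and the smallest difference between SXL and SSX. Ratios to sqd therefore tend to be lower with SXL by that choice, and they are no evidence separate from the values above. With 2 libraries against 3 the smallest two-sided p of an exact permutation test is 0.2, which these separations of SXL and SSX reached, and that test cannot go below 0.05 at this size. No test based on a model of the spread was run on the ratios. Over the 956 listed genes the median log2 SXL over SSX was -1.24 in edgeR's fit, against -0.62 for sqd. A lower ratio to sqd with SXL is therefore common among listed genes. The share of them so separated was not counted, so nothing particular to Hrb27C, ps or mub is read from these separations.

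**Figure D3:**
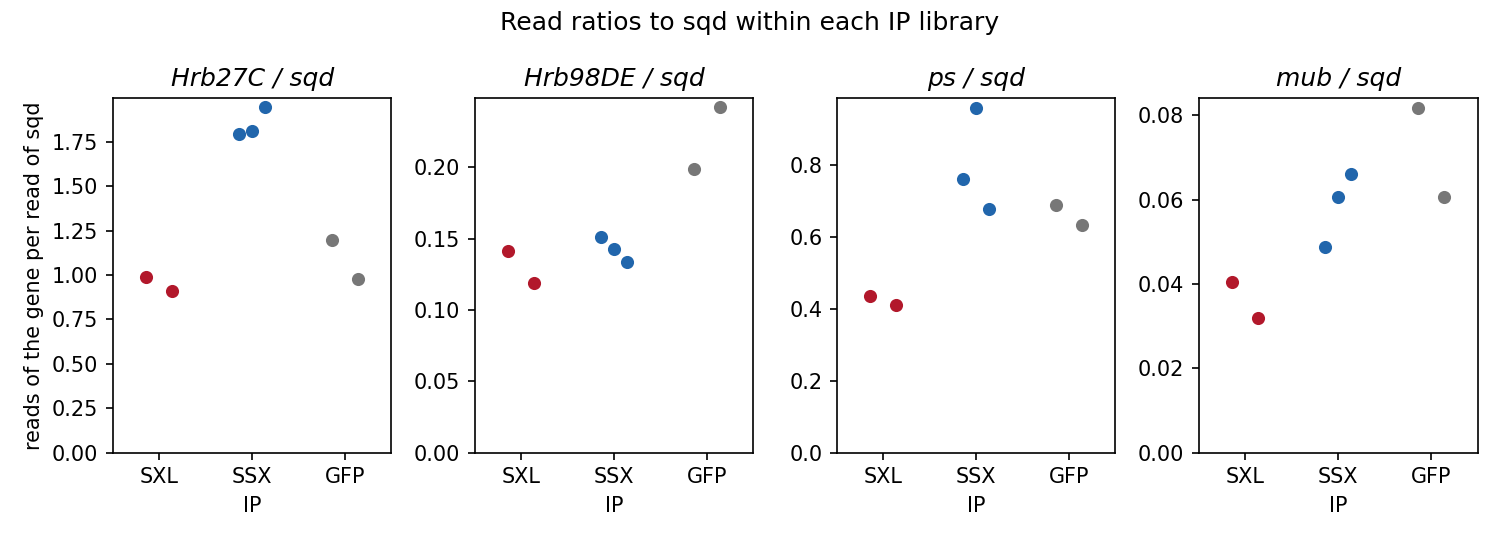
Reads of each of 4 transcripts per read of sqd in the same library, by precipitate. Points are libraries (2 SXL, 3 SSX, 2 GFP), on linear axes from 0. The SSX libraries stand at 1.79 to 1.94 for Hrb27C, above SXL and GFP, and the SXL libraries are the lowest for ps and mub. Ratios to sqd tend to be lower with SXL by the choice of sqd.

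The 5 genes with counts together took between 2.26% and 2.98% of a library's reads over listed genes. The share was 2.26% (exact 95% interval 2.24 to 2.27) and 2.58% (2.57 to 2.60) in the SXL libraries. It was 2.81% (2.79 to 2.83), 2.49% (2.47 to 2.50) and 2.98% (2.97 to 3.00) in the SSX libraries, and 2.97% (2.75 to 3.21) and 2.80% (2.61 to 3.00) in the GFP libraries, where the intervals cover counting error only. The SXL libraries overlapped the SSX libraries and lay below both GFP libraries. So the 5 transcripts together took no larger share of these reads with SXL or SSX than with GFP beyond the spread between libraries. Hrb27C and sqd supplied most of the reads, and the sum does not speak for each gene. Scaled on the listed genes with TMM in edgeR, log2 SSX over GFP was 0.68 for Hrb27C (adjusted p = 0.0292) and -0.75 for Hrb98DE (adjusted p = 0.00876). The values of sqd, ps and mub did not pass there. The separation of SSX from GFP in every library, seen for 5 of 5, was also seen for 99.7% of the listed genes, that of SXL above GFP for 97.2%, and that of SXL below SSX for 94.6%.

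On the chromosomes, 6 of the 8 genes lie on 3R and 0 on X, while 33.7% of the listed genes lie on X and 18.2% on 3R. The listed genes were selected for enrichment, and Hrb87F, heph and glo, all on 3R, are not among them. Shares over all genes were not counted, so nothing is read from this contrast. The RefSeq annotation gives heph 25 transcripts, ps 18 and mub 12, against 4 to 8 for the other genes.

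The listed genes with the most similar profile over the 7 libraries were CG1440, CG32850, CG16972, CG13004 and CG14442. Likeness was the root mean square difference of centred log2 normalized counts (plus 0.5) from the mean profile of the 5 genes, and it was 0.0673 for CG1440 and 0.108 for CG14442. The 5 genes themselves lay further from their own mean, from 0.195 for ps to 0.323 for Hrb27C. The nearest genes were picked from all other listed genes for the smallest difference, so this ordering follows from the choice. The authors' deposited table gave CG1440 a log2 value of 1.46 with SXL and 2.64 with SSX.

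Of 55 other splicing regulators set out in 4 groups, 14 could be named here, and all 14 stand in the authors' list for SSX, so their direction with SSX is fixed by that choice and is no evidence. No SR protein gene of 10 could be named. Among other hnRNP-type genes, the log2 values over GFP of Syp (hnRNP Q and R homologue) were 2.38 with SXL and 3.74 with SSX, and those of nonA 2.16 and 3.82, in the authors' deposited table. Among other KH genes, Fmr1, the fragile X protein homologue, had 1.73 and 2.47, how 1.55 and 2.15, qkr58E-1 1.85 and 2.74, and qkr58E-2 1.00 and 2.09 in the authors' deposited table. Among further regulators, spen had 0.88 and 2.80, elav 2.33 and 4.01, msi 2.19 and 3.36, and shep 1.32 and 3.09 in the authors' deposited table. Of the 14, 13 were lower with SXL than with SSX, 0 were higher and 1 did not pass in the authors' deposited table. Of the 947 genes in the list for SSX 91.3% were lower by the same call, and since being in that list favours lower values with SXL, nothing is read from the count. The widest difference was that of spen, at -1.92 (adjusted p = 1.60e-24) in the authors' deposited table, which is wider than that of Hrb27C.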

How the data were processed

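Anti-FLAG precipitates of SXL, SSX and GFP from SL2 cells were sequenced after ribosomal RNA depletion, in paired ends from stranded libraries, per the labels' protocols. The submitters' processing notes name Trimmomatic, TopHat2, featureCounts, DESeq, DESeq2 and the build BDGP6, with no versions or roles. The sources used here do not give whether counting used the strand, which leaves genes that overlap or lie antisense uncertain. The deposited tables hold, per the file headers, a mean normalized signal over 7 libraries, a log2 fold change with its standard error, a score from the test, and p-values raw and adjusted. The 2 shorter lists of the authors add read counts per library. Size factors were solved by least squares from these counts and the deposited mean, and a normalized count is a count divided by its library's factor (3.33 and 3.59 for SXL, 1.87 to 2.15 for SSX, 0.0886 and 0.120 for GFP). The lists' 14 further columns of values per library were not used.

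Members and lists were chosen with earlier results of these data known. Calls were taken from the authors' deposited p-values, adjusted over all tested genes, at 0.05. For listed genes, edgeR 4.0.16 (quasi-likelihood, Benjamini-Hochberg, the authors' size factors, all 7 libraries in 1 fit) showed dependence on libraries, with DESeq2 1.42.0 as an alternative (R 4.3.3); both were tested on simulated data. These genes were selected on the outcome, so that fit is no second evidence. Fold changes in the deposited tables lie slightly nearer 0 than ratios of mean normalized counts. Column numbers of SXL and GFP do not follow the sample titles, so libraries are used as members of their group. Named genes are all members, the baits, the cell type markers that could be named, up to 4 genes of lowest adjusted p for SSX per other list, and the 5 nearest profiles. IDs were named from the lists (956), RefSeq synonyms (189) or the rule for members (3). RefSeq Release 6 coordinates equalled the lists' for 787 of 799 genes matched by symbol. Python 3.11.15, scipy 1.17.1 and matplotlib 3.10.9 were used. Sequences are not shown, and 1 gene that the naming rule takes in is not reported here.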

Additional observations from a re-analysis of the deposited data

How the results depend on the processing

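Calls in the deposited tables moved little with the threshold for SXL over GFP, where 4 to 6 of 8 passed. A Bonferroni adjustment left 5 of 8 for SSX over GFP and 3 of 8 for SXL over SSX, and a minimum absolute log2 fold change of 1 left 4 of 8 for SXL over SSX. In edgeR on the listed genes, TMM and DESeq2's size factors, both estimated on enriched genes alone, left 0 of 5 calls for SXL over GFP. They left 2 for SSX over GFP (Hrb27C higher, Hrb98DE lower) and 2 for SXL over SSX (both higher). By construction these scalings centre the enriched genes. Signs that turned for SXL over GFP were Hrb98DE (-0.24 with TMM, -0.33 with DESeq2's factors), ps (-0.10, -0.20) and mub (-0.42, -0.51). For SSX over GFP they were Hrb98DE (-0.75, -0.76), mub (-0.35, -0.36) and sqd (-0.10, -0.11), and for SXL over SSX Hrb98DE (0.51, 0.42) and sqd (0.64, 0.56). Leaving out 1 library left 3 to 5 calls of 5 for SXL over SSX, 4 to 5 for SXL over GFP and 5 for SSX over GFP; a lone library is then assumed to vary like the others. DESeq2 and edgeR's filter on low counts, which removed 0 of 956 genes, kept 5 of 5. The planned replicate block could not be run as numbers follow no labels. A replicate block by column number, added after seeing the data, kept 5 of 5 in each comparison. Deviations of same-numbered libraries had r from -0.03 (SXL and GFP) to 0.196 (SXL and SSX library 3) across genes. Libraries of different numbers reached 0.229 (SXL library 2 and SSX library 1), so the numbers are not shown to mark pairs. Few GFP reads limit precision over GFP, and standard errors there were largest for heph.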
